A study of Mus musculus with 6 samples.

Results

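The comparison described here set pancreatic islets of mice given B29, a monoclonal antibody against serpin B13, beside islets of mice given a control IgG antibody, pair by pair within each class of islet diameter. All 6 of the 6 arrays of the study entered it: 3 B29 arrays and 3 IgG arrays, 1 of each for islets under 100 µm, of 100 to 200 µm and over 200 µm. A probe counted when its detection p-value, the share of negative control signals above it, was under 0.05 on at least 2 arrays. That rule kept 16774 of 45281 probes, and 14492 of these stood for 10530 named genes.

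The animals of both groups were BALB/c mice, an inbred strain with no engineered allele named in the labels. They received 4 intraperitoneal injections of 25 µg of B29 or of control IgG, 100 µg in all, given every other day from 2 weeks of age. Islets were taken 2 weeks after the last injection, at 5 weeks of age. The labels give neither the number of mice behind an array nor whether classes given the same antibody share mice. With diameter class as a block, the p-values measure how the difference between B29 and IgG varied from class to class, noise included. The spread between animals cannot be told from them. Each class had 1 array per treatment, and this number of arrays limits the precision.

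Serpin B13 is an intracellular inhibitor of the papain family of cysteine proteases, to which cathepsins such as cathepsin L belong, and the injected antibody binds the protein. Islets hold hormone cells of several kinds, with insulin-secreting beta cells the most frequent, along with endothelial, stromal and immune cells. Growth hormone and prolactin act on beta cells through receptors that activate the transcription factor STAT5. Among the genes STAT5 switches on are Cish and others of the suppressor of cytokine signalling (SOCS) family, whose proteins damp the same receptors.

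The start sites of 3 genes carry the sequences that bear on the genes discussed most below. Each window runs from 250 bases before to 50 bases after the annotated start, as RefSeq gives it on GRCm38.p6. The window of Cish, the gene that passed the test, lies at chr9:107296409-107296708 on the + strand. That of Socs3, a SOCS gene with no shared direction, lies at chr11:117969317-117969616 on the - strand. That of Hspb1, which encodes a small heat shock protein, lies at chr5:135887669-135887968 on the + strand. Capitals mark TTCNNNGAA, the gamma-activated site that STAT dimers bind, in Cish and Socs3, and GAANNTTC, an inverted repeat of the unit that heat shock factors bind, in Hspb1.
Cish: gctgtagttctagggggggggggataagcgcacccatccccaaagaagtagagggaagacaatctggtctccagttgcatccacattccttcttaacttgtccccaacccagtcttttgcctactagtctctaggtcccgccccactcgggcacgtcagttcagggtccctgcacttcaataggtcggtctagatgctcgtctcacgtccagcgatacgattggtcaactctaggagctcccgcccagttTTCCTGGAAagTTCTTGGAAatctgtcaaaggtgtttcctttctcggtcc
Socs3: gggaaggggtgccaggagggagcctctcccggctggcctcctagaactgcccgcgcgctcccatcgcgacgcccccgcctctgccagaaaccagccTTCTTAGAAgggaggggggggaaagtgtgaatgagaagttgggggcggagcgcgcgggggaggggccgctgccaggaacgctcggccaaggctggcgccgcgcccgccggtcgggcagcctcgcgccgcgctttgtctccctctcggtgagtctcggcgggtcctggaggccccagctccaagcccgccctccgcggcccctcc
Hspb1: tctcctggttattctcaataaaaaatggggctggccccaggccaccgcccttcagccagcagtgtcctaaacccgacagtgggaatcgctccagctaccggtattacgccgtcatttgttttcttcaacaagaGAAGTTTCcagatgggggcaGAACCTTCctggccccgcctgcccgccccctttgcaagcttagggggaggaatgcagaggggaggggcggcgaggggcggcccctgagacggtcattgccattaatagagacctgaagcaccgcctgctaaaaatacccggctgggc

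Both motifs read the same on either strand. Cish held 2 matches to TTCNNNGAA, at bases 251 to 259 and 262 to 270 counted from the window's 5′ end, which is at the annotated start itself. One match to GAANNTTC, at bases 257 to 264, overlaps both. Socs3 held 1 match to TTCNNNGAA at bases 97 to 105. Of 32851 RefSeq windows, 8.3% held at least 1 match to TTCNNNGAA and 0.457% at least 2. Hspb1 held 2 matches to GAANNTTC, at bases 134 to 141 and 154 to 161, against 7.86% of all windows with at least 1 and 0.344% with at least 2. The windows of Cited2, Npas4, Gadd45g and Txnip, described below, held neither motif. A match describes these letters and was not tested as a binding site.

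On each array 14802 to 15915 probes (32.7% to 35.1%) were detected, and median raw intensities of 73.7 to 76.6 lay near the 71.3 to 73.9 of the control probes. The islet label was borne out by its markers: the hormone genes Ins2, Gcg, Sst and Ppy had normalized log2 intensities of 11.41 to 14.20 on the 6 arrays, where 14.20 is the ceiling. Acinar genes, which encode the digestive enzymes of the exocrine pancreas, were also bright, with a summed linear level of 7942 to 216289 on the B29 arrays and 48639 to 185989 on the IgG arrays. Their list did not share a direction: the median log2 ratio, B29 minus IgG, was 0.31 under 100 µm, 0.46 at 100 to 200 µm and -3.06 over 200 µm, and 0 of 29 genes were lower in all 3 pairs. Fewer cells of a type and less RNA per cell cannot be told apart in these bulk samples.

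Cish, a feedback inhibitor of cytokine receptors that STAT5 induces, was the 1 probe of 16774 that passed, and it fell with B29. It had normalized log2 intensities of 7.23, 6.72 and 6.79 in B29 islets under 100, of 100 to 200 and over 200 µm, against 8.67, 8.54 and 8.15 in IgG islets. The 3 B29 arrays all lay below the 3 IgG arrays, with a gap wider than the range within either treatment. The averages were 6.92 ± 0.28 in B29 islets and 8.45 ± 0.27 in IgG islets (SD, n = 3 each). In limma's additive fit of treatment and diameter class, Cish was 2.91-fold lower (mean log2 ratio -1.54, SE 0.14, 95% interval -1.87 to -1.21) with a Benjamini-Hochberg adjusted p of 0.0485. This is 0.00596% of the probes tested, and 0% passed as higher with B29. At an unadjusted limma p under 0.05, 367 probes (2.19%) were lower and 416 (2.48%) higher. Together these were 783 probes (4.67%), near the share that such a threshold gives where nothing differs.

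The size of the Cish difference was steadier than its call. Over 22 alternatives its mean log2 ratio stayed between -1.63 and -1.19, while limma's adjusted p ran from 0.00106 to 0.992. Filters, error models and the block leave a mean ratio unchanged. Only other scalings, background corrections and left-out arrays or pairs could move that of Cish. The call ended with cyclic loess scaling (adjusted p = 0.0658), median centring (0.173), no background correction (0.628), a larger normexp offset (0.782), no filter on dim probes (0.839), 1 probe per gene (0.0637), no moderation (0.941), no class block (0.135), without the pair under 100 µm (0.992) and without that of 100 to 200 µm (0.844).

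The other 12 tested genes of the STAT5 and SOCS list did not move with Cish as a group. Of the 13 tested, Cish included, 2 were lower in all 3 pairs (Cish and Socs4) and 2 higher (Bcl6 and Pim1). This was 15.4% each way, against 13% lower and 12.6% higher over all 10530 genes. Socs4 alone of the other 12 was lower in all 3 pairs. Socs4, whose protein targets the epidermal growth factor receptor, had ratios of -0.28, -0.28 and -0.34 on a dim probe (raw intensities of 82.6 to 95.4). Bcl6, a transcriptional repressor that competes for STAT5 sites, had a mean ratio of 0.46 (95% interval 0.11 to 0.82) but was detected on the 3 B29 arrays alone, so it was tested only through the treatment where it is higher. Over all genes, 96 of the 1328 higher ones were detected on B29 arrays alone and 67 of the 1365 lower ones on IgG arrays alone. The cell cycle gene Ccnd2, a target of prolactin in beta cells, stood at -0.45, -0.68 and 0.09, and its other probes had mean ratios of -0.01 and -0.10. Socs2 had a mean ratio of -0.07 (interval -0.46 to 0.33). Socs3, with the promoter match shown above, had one of -0.27 (interval -0.94 to 0.40). The median ratios of the list, Cish included, were -0.06, -0.02 and -0.05 in the order of diameter, against 0.00, -0.02 and 0.01 over all genes.

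Upstream of these targets stand the cytokine and growth hormone receptors with their kinases and phosphatases. Of 17 tested genes, 4 were higher in all 3 pairs (23.5%) and 2 lower (11.8%). Ptpn6, the phosphatase SHP-1 that switches off receptor-bound kinases, had ratios of 0.31, 0.30 and 0.32, with all B29 arrays above all IgG arrays, but its second probe had -0.28, 0.38 and 0.03. Ifngr1, a chain of the interferon gamma receptor, had ratios of 0.51, 0.23 and 0.28. Stat2, which carries the interferon alpha signal, had -0.25, -0.57 and -0.26 on a dim probe (raw intensities of 81.6 to 95.4). None of the 17 passed limma's adjusted test, and 3 had an unadjusted p under 0.05. Of these 1 was lower and 2 higher, against 2.19% and 2.48% of all probes.

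**Figure D1:**
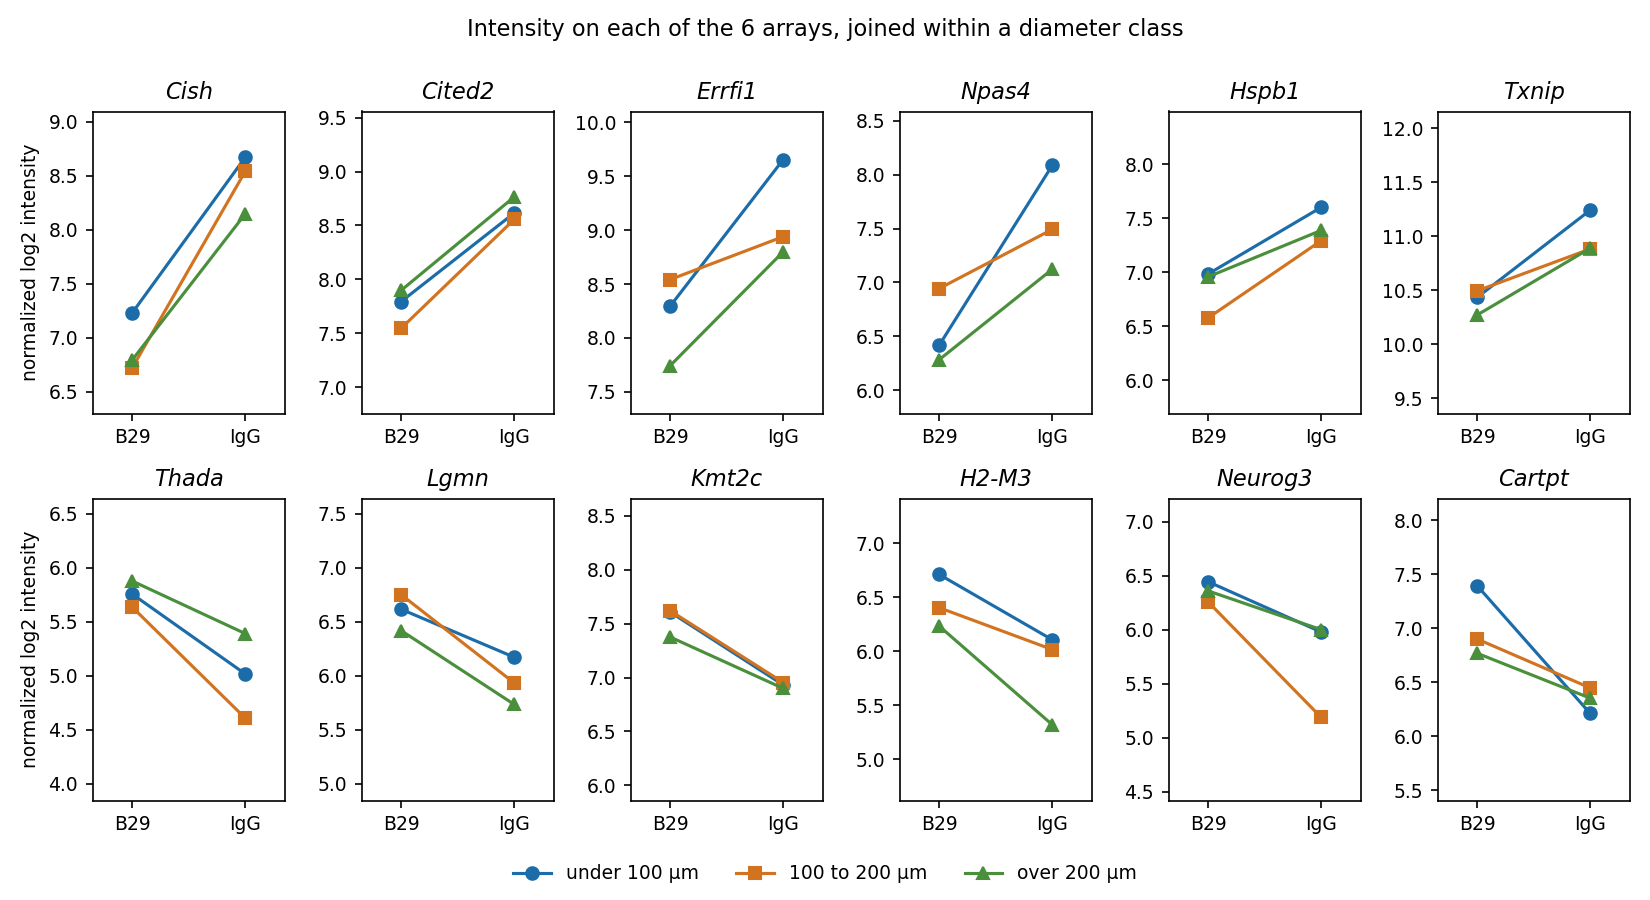
Normalized log2 intensity (vertical axis, the same span in every panel) of 12 genes on the B29 and IgG arrays, with the arrays of a diameter class joined by a line and marked by shape. Cish has the largest mean difference of these 12 genes (-1.54), and its 3 B29 points (6.72 to 7.23) lie below its 3 IgG points (8.15 to 8.67), while under 100 µm the line of Npas4 is steeper (-1.67).

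Beyond Cish, differences shared by the 3 pairs were small. Of the 16774 probes, 4274 (25.5%) had the same sign in all 3 pairs, 2085 higher and 2189 lower with B29. Signs drawn at random would be the same in all 3 pairs for a share of 0.25, so this count is near that level. A difference of at least 1.2-fold in every pair was reached by 109 probes that were higher and 122 that were lower, and one of at least 1.5-fold by 2 (0.0119%) and 3 (0.0179%). The named probes among these 5 were those of Cish and Cited2, both lower, and the other 3 had no gene name. From 1.8-fold up to 2.5-fold, Cish alone of the probes tested remained. Of 107 probes with a mean ratio of at least 1.5-fold, 50 reached that fold in 1 pair, 52 in 2 pairs and 5 in all 3.

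The 95% intervals give the precision of these arrays. The median interval reached 0.32 on the log2 scale, or 1.25-fold, to either side of a probe's mean ratio. For 14199 probes (84.6%) the whole interval lay within 1.5-fold of no difference, and for 16632 (99.2%) within 2-fold. These intervals hold for the normalized values. The offset added in background correction makes the ratios of dim probes smaller. For dim probes a narrow interval therefore does not bound the difference in signal above background. Treatment took a median of 11.6% of a probe's sum of squares over the 6 arrays, diameter class 40.5% and the remainder 34.3%. The mean shares were 19.3%, 42.7% and 38.0%. Treatment has fewer degrees of freedom than class or remainder, so its share is smaller even where nothing differs. The shares therefore do not rank treatment against class. An exact sign-flip test over 3 pairs cannot give a two-sided p under 0.25, so single genes were tested only in limma's fit across all probes.

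**Figure D2:**
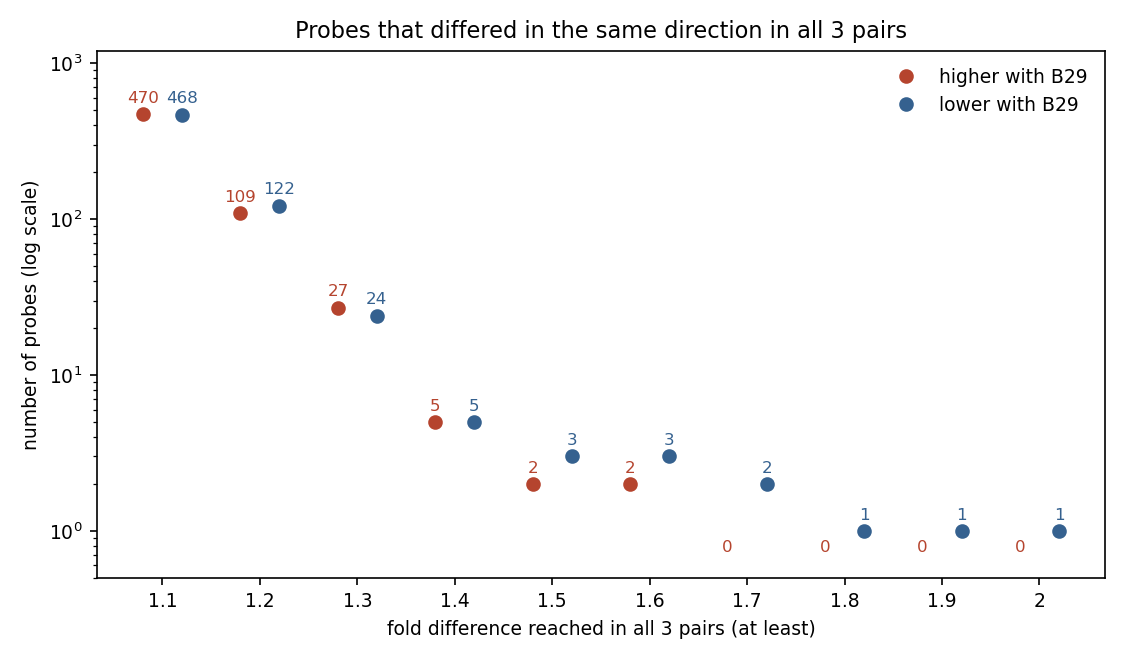
Number of probes (vertical axis, log scale, with the count printed at each point and 0 written where none was left) that differed by at least the fold on the horizontal axis in all 3 pairs, higher or lower with B29. The counts in both directions stay close to each other down to 5 and 5 at 1.4-fold, and 1 probe, that of Cish, is left from 1.8-fold on.

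The genes described next were chosen by their values in this comparison: the 10 higher and 10 lower genes with the lowest p, and the 10 and 10 with the largest difference in the pair where it was smallest. These made 29 genes, 15 higher and 14 lower, all detected on 6 arrays with 1 direction in all 3 pairs. Their values are therefore a description. The last gene taken by the second choice differed by 0.416 on the log2 scale in its weakest pair among those higher and by 0.410 among those lower, and the next gene left out by 0.411 and 0.407. In 27 of the 29 the B29 and IgG arrays did not overlap, against 4.31% of all genes with every B29 array above and 4.96% with every B29 array below. Adjusted p was 0.966 for 27 of them, and 0.0485 for Cish and 0.686 for Cited2.

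Of the 14 lower genes, Cited2 had the lowest p after Cish. Cited2, whose protein competes with hypoxia-inducible factor for the coactivator CBP/p300, had log2 intensities of 7.80, 7.55 and 7.90 in B29 islets, against 8.62, 8.56 and 8.76 in IgG islets. Its ratios were -0.82, -1.01 and -0.87 (mean -0.90, SE 0.13), and no B29 array reached an IgG array. Its other probes had mean ratios of -0.29 and -0.11. Npas4, a transcription factor induced by calcium entry in excitable cells, had intensities of 6.42, 6.94 and 6.28 in B29 islets, against 8.08, 7.49 and 7.12 in IgG islets. Errfi1, which encodes an inhibitor of the epidermal growth factor receptor, had 8.30, 8.54 and 7.74 in B29 islets, against 9.65, 8.94 and 8.80 in IgG islets. Both were low on every B29 array, with mean ratios of -1.02 (SE 0.20) and -0.94 (SE 0.19), and the difference was widest under 100 µm.

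Txnip, an inhibitor of thioredoxin that glucose induces in beta cells, had intensities of 10.43, 10.49 and 10.27 in B29 islets, against 11.24, 10.88 and 10.89 in IgG islets. Gadd45g, a growth arrest and DNA damage gene, had 10.20, 10.50 and 10.30 in B29 islets, against 10.82, 10.90 and 11.16 in IgG islets. Each was lower in all 3 pairs on a second probe as well: the ratios there were -0.33, -0.33 and -0.39 for Txnip and -0.30, -0.34 and -0.43 for Gadd45g. Hspb1 had intensities of 6.98, 6.58 and 6.96 in B29 islets, against 7.60, 7.29 and 7.39 in IgG islets. The remaining lower genes had mean ratios from -0.80 to -0.53. They were Rpf1, a ribosome assembly factor, Folr1, a folate receptor, Dmac2l, Epc1, a subunit of a histone acetyltransferase complex, Esm1, a proteoglycan that endothelial cells secrete, D7Ertd70e and Plekha4.

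The 15 genes that were higher had mean ratios from 0.50 to 0.75. Thada, a gene named after a breakpoint in thyroid adenomas, had intensities of 5.76, 5.64 and 5.88 in B29 islets, against 5.02, 4.61 and 5.39 in IgG islets. Kmt2c, a methyltransferase of histone H3, had 7.61, 7.62 and 7.38 in B29 islets, against 6.93, 6.95 and 6.90 in IgG islets. Every B29 array was above every IgG array for both, and for Kmt2c the 3 IgG arrays were nearly alike (SD 0.03). Lgmn encodes legumain, a lysosomal protease that cleaves after asparagine and processes cathepsins. It had 6.62, 6.75 and 6.42 in B29 islets, against 6.17, 5.93 and 5.73 in IgG islets, with a mean ratio of 0.65 (SE 0.14).

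Others of these genes were Ppcs, an enzyme of coenzyme A synthesis (0.70), Smarcd2, a subunit of the SWI/SNF chromatin remodeller (0.61), and Vps33a, which takes part in fusing vesicles with lysosomes (0.54). The cell cycle kinase gene Cdk2 stood at 0.56, the sterol synthesis gene Erg28 at 0.54 and the tight junction gene Tjap1 at 0.62. Cartpt, an islet neuropeptide gene, had 7.40, 6.90 and 6.77 in B29 islets, against 6.21, 6.45 and 6.35 in IgG islets. Its second probe was also higher in every pair (0.31, 0.14 and 0.51). Gm10060, Dhx57, Capn2, Gm6263 and H2-M3 completed the set, with mean ratios from 0.50 to 0.70. Of the 29 genes, 13 had another tested probe, 20 probes in all: 6 of these had the same direction in all 3 pairs, 1, a probe of Capn2, had the opposite one, and 15 had a mean of the same sign. The second probes of Vps33a and Tjap1 stood at -0.33 and -0.13. For Capn2 the probe with the highest mean was the opposite one (-0.21, -0.50 and -0.18). The probe with the highest mean had 0.63, -0.13 and 0.27 for Erg28, and -0.28, -0.16 and 0.18 for Epc1. The direction given for each of these genes rests on 1 probe. Other probes had mean ratios of -0.13 and 0.01 for Rpf1, and of 0.16 and 0.05 for Cdk2.

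**Figure D3:**
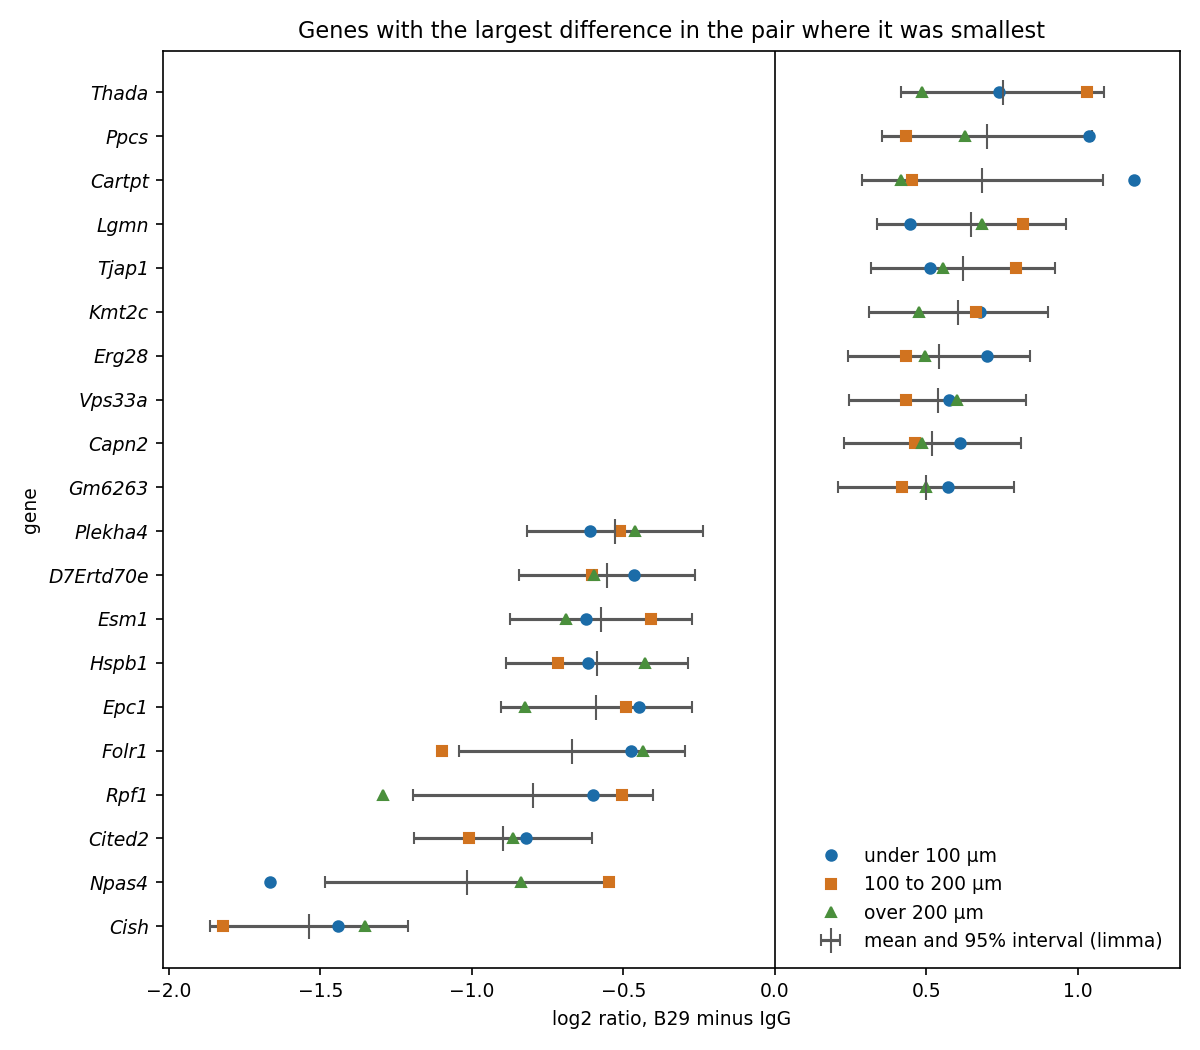
Log2 ratio of B29 to IgG (horizontal axis) in each of the 3 diameter classes (points) for the 20 genes with the largest difference in their weakest pair, with limma's mean and 95% interval (bar). The mean of Cish (-1.54) lies apart from the other 19 means, which run from -1.02 to 0.75. Its single ratios run from -1.82 to -1.35, a range that also holds the ratio of Npas4 under 100 µm (-1.67).

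The gene lists were drawn up with earlier results of these data known, so their counts are a description. The counts include genes already chosen above by their values: Hspb1 here, and below Npas4, Errfi1, Cited2, Lgmn and H2-M3. The heat shock list, made of chaperones and their helpers that misfolded protein induces, leaned lower with B29. Of 18 tested genes, 6 were lower in all 3 pairs (33.3%) and 1, Chordc1, higher (5.56%), against 13% and 12.6% of all genes. Zfand2a, an arsenite-induced proteasome helper, had intensities of 8.06, 8.44 and 8.17 in B29 islets, against 9.16, 8.77 and 8.66 in IgG islets. Hspa1b, an inducible Hsp70 gene, had 6.42, 6.83 and 6.72 in B29 islets, against 6.92, 7.05 and 7.40 in IgG islets, and its second probe had ratios of -0.86, 0.36 and -0.64. In 4 of the 6, among them Hspb1, Zfand2a and Hspa1b, every B29 array lay below every IgG array. Over all genes this held for 522 of the 1365 that were lower in all 3 pairs. The other lower genes of the list were Dnajb1 (-0.52), Hspb8 (-0.40) and Hsp90aa1 (-0.33). By unadjusted p, 6 genes were under 0.05, all lower, against 2.19% of all probes. Of the list 0 passed limma's adjusted test (adjusted p = 0.966 at the lowest). The list's median ratio was -0.46 under 100 µm, -0.06 at 100 to 200 µm and -0.12 over 200 µm, so the list as a whole was furthest from 0 in the smallest islets.

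Immediate early genes respond to a stimulus without new protein. Of 27 tested, 6 were lower in all 3 pairs (22.2%) and 2 higher (7.41%), with list medians of -0.35, 0.01 and -0.05. Besides Npas4 and Errfi1 the lower ones included Phlda1 (-0.30, -1.07 and -0.46) and the AP-1 genes Jun (-0.53, -0.15 and -0.44) and Fos (-0.75, -0.32 and -0.01). Ier2 was among those higher (0.65, 0.25 and 0.26). With median centring 12 genes of this list (44.4%) were lower in all 3 pairs and 9 of the heat shock list (50%), against 12.1% of all genes.

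The hypoxia response list, which was drawn up around Cited2, had 5 of 17 tested genes lower in all 3 pairs (29.4%) and 0 higher. Beside Cited2 these were Ddit4, an inhibitor of the growth kinase mTOR that stress induces (-0.19, -0.78 and -0.57), Hif1a, the oxygen-regulated factor itself (-0.53, -0.15 and -0.45), the pyruvate dehydrogenase kinase gene Pdk1 and the histone demethylase gene Kdm3a. In 4 of the 5 the arrays of the treatments did not overlap. Over all genes this held for 522 of the 1365 that were lower in all 3 pairs. The other probes of Kdm3a changed sign between pairs. The Hif1a probe was dim (raw intensities of 77.7 to 96.6, detected on 5 arrays), and other Hif1a probes were detected on 0 arrays. The list's medians were nevertheless near 0, at -0.07, -0.12 and -0.07, and the median of its genes' mean ratios was 0.03. Of 14 glycolysis genes 4 were lower in all 3 pairs (28.6%), among them Aldoa (-0.43, -0.46 and -0.27) and Tpi1 (-0.39, -0.35 and -0.63, with a second probe at 0.06, -0.03 and 0.30), and Pgk1 was higher (0.09, 0.30 and 0.30). At an unadjusted p under 0.05 there were 3 genes of the hypoxia list and 2 of the glycolysis list, all lower, against 2.19% of all probes. From either list 0 passed limma's adjusted test.

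Genes of endoplasmic reticulum stress, which insulin-producing cells use to cope with their protein load, were closer to the background, with 4 of 22 lower (18.2%) and 2 higher (9.09%). Herpud1, a component of the pathway that removes misfolded protein, had 10.75, 10.84 and 10.66 in B29 islets, against 11.39, 11.49 and 10.93 in IgG islets. On this probe all 3 B29 values lay below all IgG values, but its second probe had ratios of -0.19, -0.26 and 0.16. The arrays did not overlap either for Pdia4, a disulfide isomerase gene, with ratios of -0.21, -0.11 and -0.19.

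**Figure D4:**
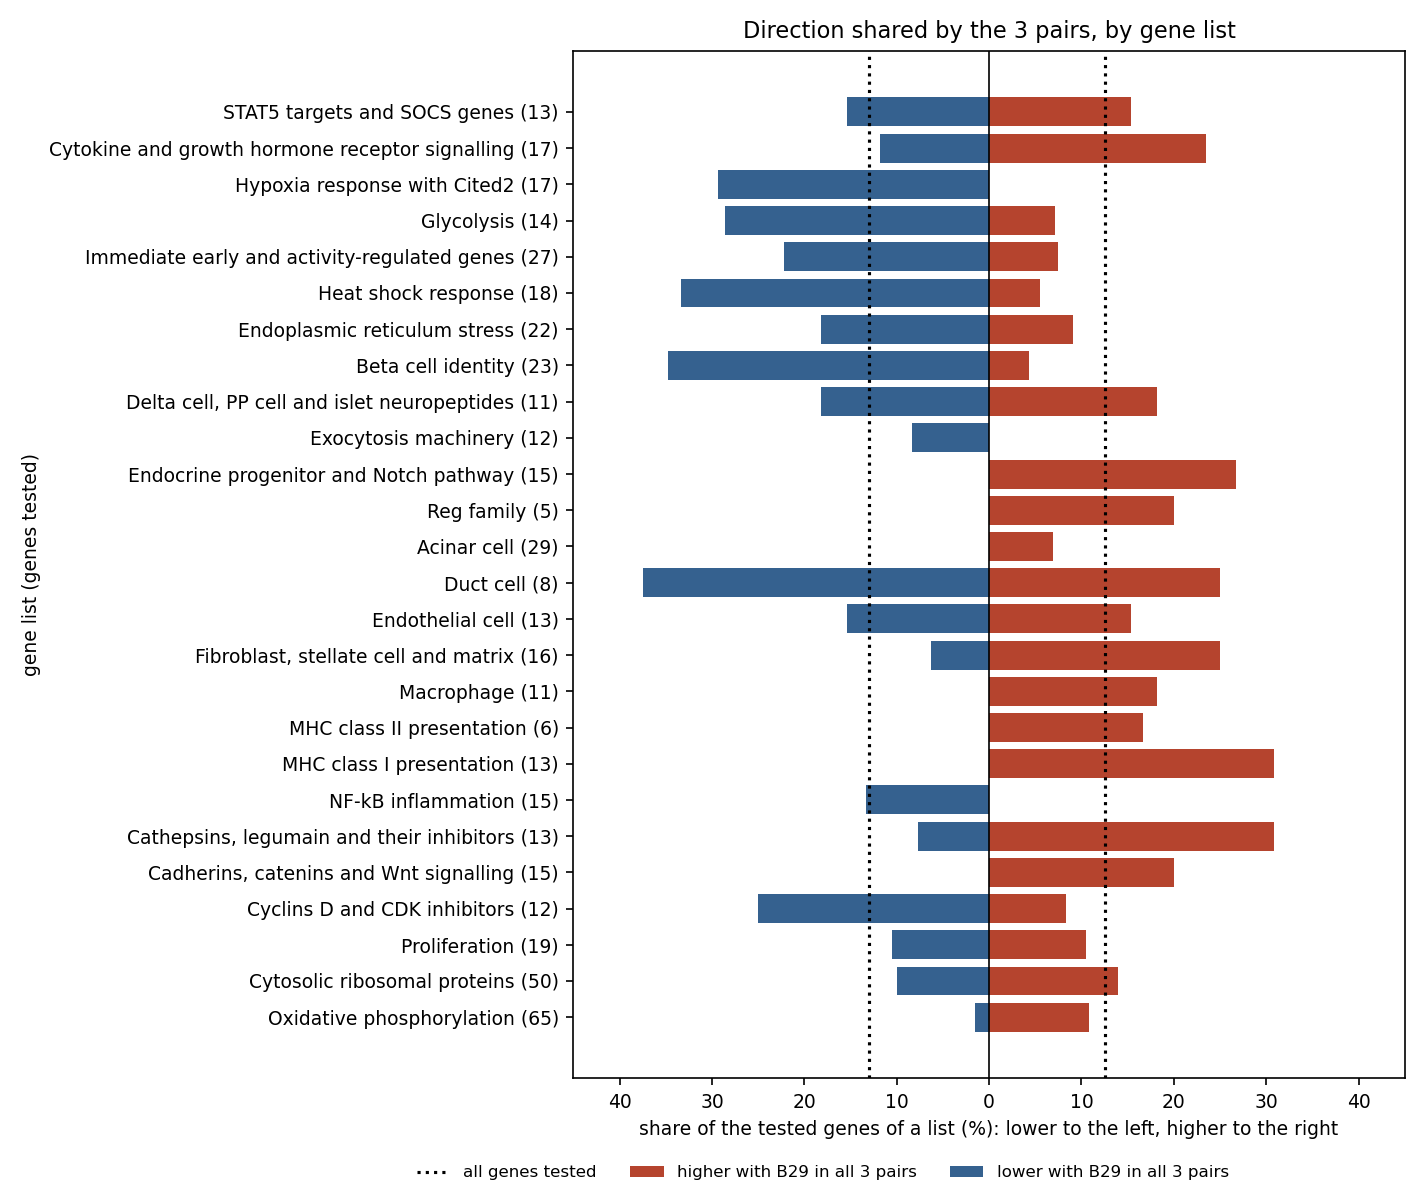
Share of each list's tested genes (horizontal axis, %; number tested in brackets) that were higher (right) or lower (left) with B29 in all 3 pairs, for lists with at least 5 tested genes, with dotted lines at the shares over all genes (12.6% higher, 13% lower). On the lower side duct cell genes (37.5%, 3 of 8), beta cell identity (34.8%), heat shock (33.3%), hypoxia (29.4%) and glycolysis (28.6%) reach furthest beyond the line, and on the higher side MHC class I and cathepsins (30.8% each) and endocrine progenitor genes (26.7%). Other bars pass a line by less, among them the 25% of duct cell genes that were higher. With median centring, 0% of duct cell genes were lower and 0% higher in all 3 pairs.

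The genes that define beta cells differed little. Of 23 tested, 8 were lower in all 3 pairs (34.8%) and 1, the transcription factor gene Foxa2, higher (4.35%), but the mean ratios ran only from -0.36 to 0.25 and the list's medians were -0.12, -0.10 and -0.02. Ucn3, a peptide gene of mature beta cells, had 10.01, 10.35 and 10.37 in B29 islets, against 10.66, 10.49 and 10.65 in IgG islets. Its arrays did not overlap between the treatments, and it was the 1 gene of the list with an unadjusted p under 0.05 (0.0381; limma's adjusted p = 0.966). Kcnj11, a subunit of the potassium channel that couples glucose to insulin release, had ratios of -0.24, -0.22 and -0.13. It was detected on the 3 IgG arrays alone, and so was tested only through the treatment where it is higher, which leaves 7 others lower. Iapp, the gene of amylin, had -0.16, -0.05 and -0.08. For 19 of the 23 genes the 95% interval lay within 1.5-fold of no difference, and for all 23 within 2-fold.

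Ins2, one of the mouse insulin genes, sat at the intensity ceiling of 14.20 on 5 of the 6 arrays. On the B29 array under 100 µm it took the next fixed value of the scaling, 13.97. Its raw intensity there was higher with B29 than with IgG (19040 against 18577). Neither the size nor the sign of its mean ratio of -0.08 (interval -0.38 to 0.22) can therefore be read as a difference. The glucagon gene Gcg took the value 13.97 on 3 arrays, so its interval of -0.37 to 0.21 has the same limit. Under 100 µm its ratio was -0.11, while its raw intensity was higher with B29 (15535 against 13631). The interval was -0.42 to 0.21 for the somatostatin gene Sst and -0.16 to 0.62 for the transcription factor gene Pdx1. It was -0.21 to 0.38 for the glucose transporter gene Slc2a2, whose other probes had mean ratios of -0.21 and -0.22. Ppy, the pancreatic polypeptide gene, was lower in all 3 pairs, with ratios of -0.81, -1.05 and -0.10. Its arrays overlapped between the treatments (mean ratio -0.65, SE 0.19; limma's adjusted p = 0.966). None of the 4 alpha cell genes tested had the same direction in all 3 pairs.

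**Figure D5:**
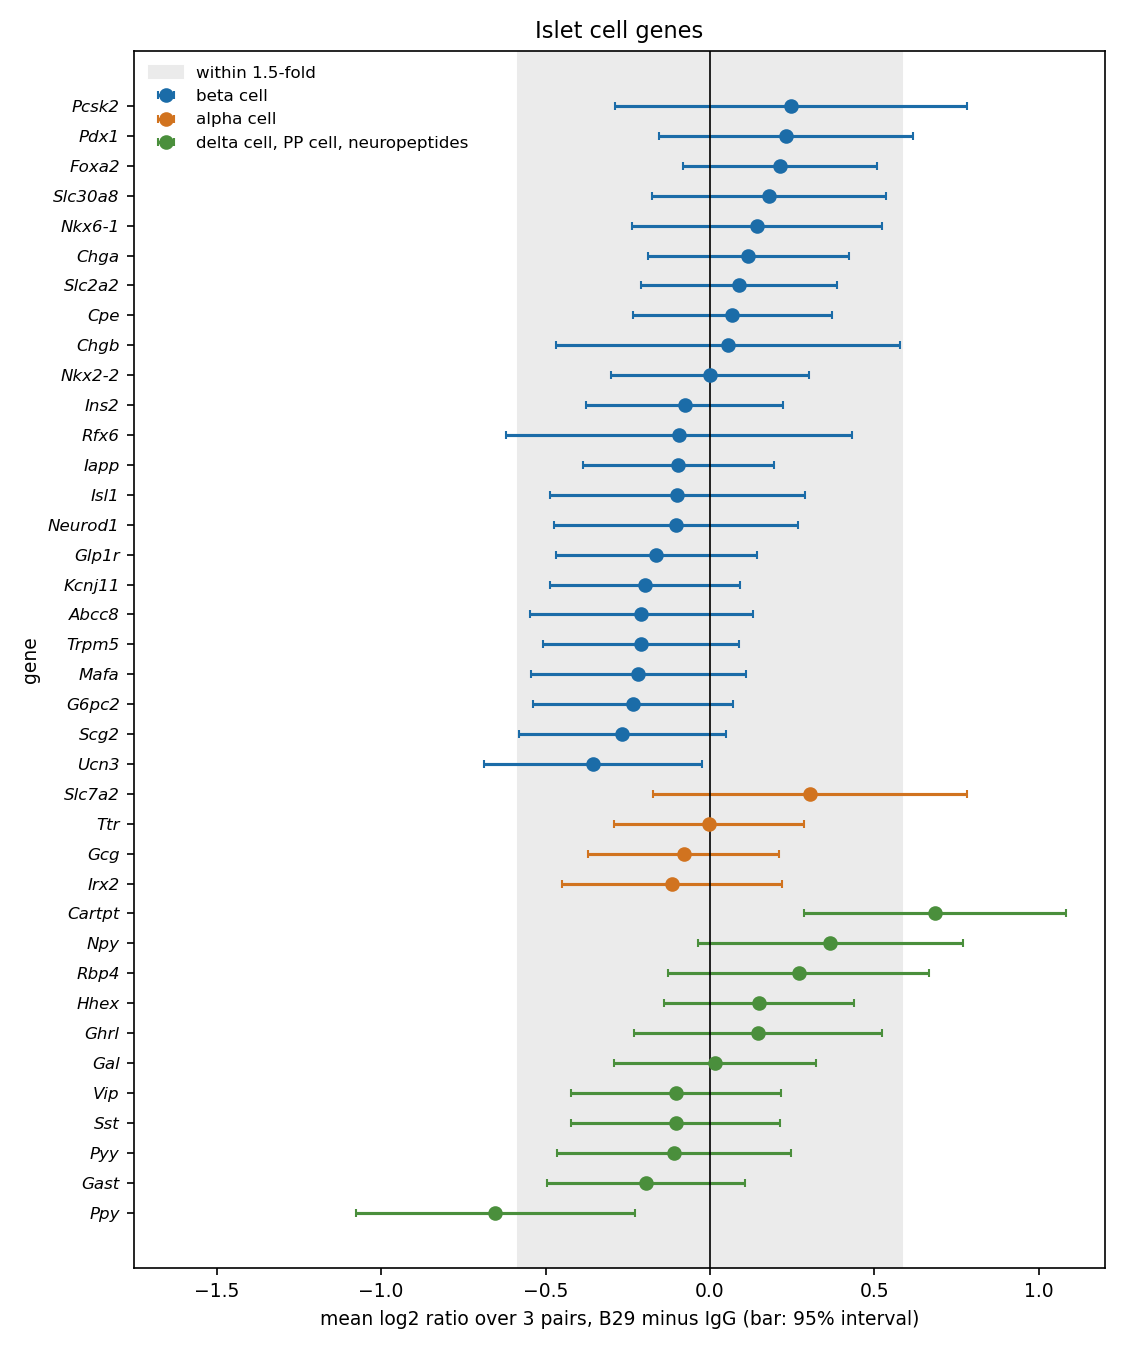
Mean log2 ratio, B29 minus IgG, over the 3 pairs (horizontal axis, bars for the 95% interval) for the tested genes of beta, alpha, delta and PP cells and islet neuropeptides, with grey marking 1.5-fold in either direction. Cartpt (0.68) and Ppy (-0.65) have means outside the grey band, and the beta cell genes have means between -0.36 and 0.25.

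Cathepsins, legumain and their inhibitors, the protease system that serpin B13 belongs to, had 4 of 13 tested genes higher in all 3 pairs (30.8%) and 1, Ctsf, lower (7.69%). Beside Lgmn the higher ones were Serpina3n, a secreted serine protease inhibitor gene (0.46, 0.48 and 0.46), Ctsh, which encodes cathepsin H (0.41, 0.15 and 0.33), and the cystatin gene Cstb. Serpina3n was detected on the 3 B29 arrays alone and so was tested only through the treatment where it is higher, which leaves 3 others. The second probe of Ctsh had ratios of 0.26, 0.57 and -0.46. Ctsl, the gene of cathepsin L, had ratios of -0.34, 0.06 and -0.10, with an interval of -0.44 to 0.19. Its probe was dim (raw intensities of 82.1 to 88.7), and the offset added in background correction makes the ratios of dim probes smaller. The interval for Ctsl therefore does not bound the difference in its signal above background. Serpinb13 itself was not detected on any array (detection p from 0.556 to 0.975). Cdh1, the gene of E-cadherin, had an interval of -0.29 to 0.29. At an unadjusted p under 0.05 stood 2 genes of the list, Lgmn and Serpina3n, both higher, against 2.48% of all probes. Of the list 0 passed limma's adjusted test.

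Genes of the endocrine progenitor and Notch list had 4 of 15 members higher in all 3 pairs (26.7%) and 0 lower. Neurog3, the transcription factor that starts endocrine differentiation in the embryo, had intensities of 6.45, 6.26 and 6.36 in B29 islets, against 5.98, 5.19 and 6.00 in IgG islets. The B29 arrays lay above the IgG arrays, and the IgG array of 100 to 200 µm was the lowest of all 6. Nrarp, a Notch target that feeds back on the pathway, had ratios of 0.15, 0.58 and 0.39. The Notch coactivator gene Maml1, dim and detected on 5 arrays, had 0.08, 0.25 and 0.40. Notch1 stood at -0.02, 0.21 and 0.43. Of this list 2 genes had an unadjusted p under 0.05, both higher, against 2.48% of all probes. In limma's adjusted test 0 passed (adjusted p = 0.966 at the lowest).

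Of 13 MHC class I genes, which present peptides to CD8 T cells, 4 were higher in all 3 pairs (30.8%) and 0 lower. They were H2-M3, a nonclassical class I gene (0.60, 0.39 and 0.91), B2m, the shared light chain (0.10, 0.38 and 0.30), H2-K1 and the peptide transporter gene Tap1. Tap1 was detected on 2 B29 arrays and no IgG array, so it was tested only through the treatment where it is higher. The second probes of B2m (-0.34, 0.08 and 0.20) and H2-K1 (-0.02, -0.18 and 0.02) did not share a direction. The list's summed linear level was 1982 to 2147 on the B29 arrays and 1848 to 1907 on the IgG arrays, so the treatments did not overlap. This was not particular to class I. The fibroblast and matrix sum was also higher without overlap (2496 to 2987 against 2354 to 2398). The sums of the STAT5 and SOCS list (1561 to 1745 against 1906 to 2360) and the hypoxia list (1818 to 1991 against 2187 to 2382) were lower without overlap. Of the 13 class I genes, 1 had every B29 array above every IgG array, against 4.31% of all genes. Over the same arrays the summed level of the 11 tested macrophage markers was 389 to 868 on the B29 arrays and 408 to 448 on the IgG arrays, and that of the 2 tested B cell markers 42.4 to 686 and 47.4 to 56.1. The part of these cells in the class I values was not tested. Of the class I list 1 gene had an unadjusted p under 0.05, and it was higher, against 2.48% of all probes. In limma's adjusted test 0 passed.

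Cell cycle genes pointed both ways. Cdkn1a, the inhibitor p21, was lower in every pair (-0.48, -0.25 and -0.41), and Ccnd3, a D-type cyclin gene, was higher (0.41, 0.30 and 0.19). A dimmer probe of Ccnd3, detected on 2 arrays, pointed the other way in every pair (-0.48, -0.06 and -0.08). Of 12 tested D-type cyclin and CDK inhibitor genes, 3 were lower in all 3 pairs (25%) and 1 higher (8.33%). Of 19 proliferation genes 2 were higher and 2 lower in all 3 pairs (10.5% each way). Mki67, which marks dividing cells, had ratios of 0.16, 0.53 and 0.17, and Tyms, which makes thymidylate for DNA synthesis, had -0.51, -0.13 and -0.66. Reg2, a secreted lectin gene of the regenerating family, had intensities of 9.61, 6.83 and 4.35 in B29 islets, against 5.92, 4.16 and 4.17 in IgG islets. It was detected on both arrays under 100 µm and on the B29 array of 100 to 200 µm. Its mean ratio of 2.19 therefore includes 3 values at background, 1 at 100 to 200 µm and both over 200 µm.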

How the data were processed

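Total RNA of pancreatic islets was hybridised to 6 Illumina mouse bead arrays, 3 per antibody, grouped and paired by the labels' treatment and diameter class. The deposited raw table holds intensity columns, each with a detection p-value, neither background-corrected nor scaled, as its values show. The deposited value table holds log2 intensities. The submitters' processing notes list limma 3.34.9, per the labels. limma's neqc on the raw intensities (offset 16, quantile scaling, control rows included) came within 0.00037 of the authors' log2 values. Of 46255 rows, 974 were controls and 22 had text in place of an intensity. The main values were the authors' log2 values. limma 3.58.1 in R 4.3.3 fitted class and treatment additively to all 16774 probes (2 residual and 6.60 prior degrees of freedom), with Benjamini-Hochberg adjustment. The fit was tested on simulated data.

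Diameter class was a block because the labels give each class 1 array per antibody, not because of a known shared animal. The deviations of paired arrays from their treatment means correlated at 0.45, -0.03 and 0.31 over probes in the order of diameter.

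Probes were named through the platform table and RefSeq (GRCm38.p6): 35784 had 1 symbol and 9497 none. For a list, the probe with the highest mean stood for its gene. The genes named are the 10 highest and 10 lowest by p and by smallest ratio, any past the threshold, genes of the study's subject and members of 29 lists. For the first of these choices, the probe chosen stood for the gene. Members and lists were chosen with earlier results of these data known. Jun, Fos, Ier2, Dnajb1, Hspb8, Hsp90aa1 and others outside these choices were named after their values were seen. Alternatives were other scalings, background corrections, filters and error models, 1 probe per gene, no block, and each array or pair left out.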

Additional observations from a re-analysis of the deposited data

How the results depend on the processing

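Of 90 genes followed through up to 22 alternatives each, 84 kept their direction in all of them. For many this was fixed beforehand. Filters, error models and the block leave a mean ratio unchanged. A gene with the same sign in all 3 pairs also keeps it when a pair is left out. The count is therefore no measure of robustness. The block by diameter class mattered for the 1 call: with no replicate block 0 probes passed and Cish stood at -1.54 with limma's adjusted p = 0.135. Also 0 probes passed with cyclic loess (Cish -1.53), median centring (-1.56), no background correction (-1.19), a normexp offset of 50 (-1.31), no filter on dim probes (-1.54), 1 probe per gene (-1.54) and no moderation (-1.54). The unadjusted count was 659 without the block and 490 to 2392 under the other settings just named, against 783. With neqc redone, stricter detection filters, trended and robust eBayes or the acinar list left out, 1 probe passed. Leaving out 1 pair, or either of its arrays, which gives the same ratio, left 0 to 3 probes and put Cish at -1.63 to -1.40. The 3 probes, without the pair over 200 µm, were those of Cish, Reg2 (3.19, adjusted p = 2.36e-06, with 1 of its 4 values at background) and Acta2 (1.22). The probes at least 1.5-fold apart in all pairs numbered 3 with median centring, 2 with 1 probe per gene, and 34 to 68 when 1 pair was left out, which leaves fewer pairs to meet it. At least 1.2-fold there were 231 and at least 2-fold 1. Some genes with small ratios changed sign: with cyclic loess Ins2 (0.051), Gcg (0.078) and Cdh1 (0.011), and with 1 pair left out Sst (-0.18 to 0.018), Cdh1 (-0.040 to 0.020), Socs2 (-0.28 to 0.15) and Socs3 (-0.68 to 0.25). The cause was not tested. Median centring moved the median ratio of a pair to 0.13 at most, against 0.01. Under it 1 cadherin and Wnt gene was higher in all 3 pairs, against 3 (1 of them, Nkd1, detected on B29 arrays alone), and 2 oxidative phosphorylation genes, against 7. Also higher were 2 cytosolic ribosomal protein genes, against 7, and 6 endocrine progenitor and Notch genes, against 4. Lower were 0 duct cell genes, against 3, and 2 endoplasmic reticulum stress genes, against 4. The lower immediate early genes numbered 12, against 6, and the lower heat shock genes 9, against 6. The signal over background limits dim probes, whose ratios the added offset of 16 makes smaller.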

Other observations

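Genes of the protein synthesis and energy machinery were not described above. Of 50 tested genes of cytosolic ribosomal proteins, 7 were higher and 5 lower with B29 in all 3 pairs (14% and 10%), with mean ratios from -0.32 to 0.52. Of the lower ones Rpl21 was detected on IgG arrays alone. Of 65 oxidative phosphorylation genes, 7 were higher (10.8%) and 1 lower (1.54%). Ndufa4, a subunit gene of the respiratory chain, had ratios of 0.19, 0.23 and 0.51, and Atp5mpl, a small subunit gene of the ATP synthase, 1.11, 0.90 and 0.09. For 55 of the 65 the 95% interval lay within 1.5-fold of no difference. Of 16 fibroblast and matrix genes 4 were higher and 1 lower in all 3 pairs. Vim, the gene of vimentin, stood at 0.26, 0.52 and 0.36. Timp1, a metalloprotease inhibitor gene, stood at -0.33, -0.26 and -0.21 on a dim probe detected on 5 arrays. Its second probe, detected on 3 arrays, changed sign between pairs. Among 13 endothelial genes 2 were higher and 2 lower, and of the higher ones Vwf was detected on B29 arrays alone. Of 8 duct cell genes 3 were lower and 2 higher in all 3 pairs, with mean ratios over the 8 from -0.25 to 0.24 and none without overlap between the treatments.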
